A study of Mus musculus with 2 samples.

Results

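The genes described here are 10 genes of the Notch pathway: the receptors Notch1, Notch2 and Notch3, the ligands Dll1, Jag1 and Jag2, the DNA-binding factor Rbpj, and the target genes Hes1, Hey1 and Heyl. They were chosen by gene symbol from the deposited table of gene activity, in which they have 12 of the 24165 RefSeq entries, or 10 of the 20128 symbols. Activity was measured by GRO-seq, in which engaged polymerases of isolated nuclei run on with a bromouridine label and the labelled nascent RNA is sequenced. The cells were untreated C2C12 myoblasts, an established mouse line that can differentiate into muscle fibres, grown to 80% confluency with 4 plates per nuclei isolation. The authors pooled 2 replicate libraries into a single value per entry, so no group is compared with another and no difference below has a replicate error or a test. The unit, RPKmM, counts sense-strand reads of the gene body, from 1 kb after the transcription start site (TSS) to the transcript end, per kilobase of mappable bases, scaled to the number of reads. Because it is scaled by length, levels of different genes can be set side by side.

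In the canonical Notch pathway, a Delta-like or Jagged ligand on the surface of a cell binds a Notch receptor on its neighbour. The receptor is then cut, and its intracellular part enters the nucleus, where it joins Rbpj and Mastermind-like coactivators at target genes. Without it, Rbpj is bound by corepressors. Genes of the Hes and Hey families encode basic helix-loop-helix repressors and are the best known targets, and in muscle the pathway is known for keeping progenitors from differentiating.

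All 12 entries are listed as active, against 70.2% of all entries. The genes were picked with earlier results of this table known, and this count is therefore not a result. For the same reason, the shares and the median below describe only the genes picked. Across active entries the median activity was 0.87 RPKmM, with quartiles of 0.22 and 1.99. Of the 12 entries, 10 were at 1 RPKmM or above (46.0% of all active entries), 11 at or above the active median (50.2%) and 7 at or above the upper quartile (25.1%). Rbpj alone gives 3 of the entries. Counted as genes, 8, 9 and 5 of the 10 reached these levels, against 31.6%, 34.5% and 17.3% of all symbols. Over the 10 genes, each taken at its highest entry, the median activity was 1.92 RPKmM, 2.21 times that of all active entries. From the highest to the lowest the order was Hes1, Rbpj, Notch2, Notch3, Jag2, Notch1, Hey1, Heyl, Jag1 and Dll1. Neighbours in this order differed by 1.06-fold (Rbpj over Notch2, and Notch2 over Notch3) to 2.82-fold (Jag1 over Dll1), and whether any of these steps exceeds the spread between libraries cannot be told from pooled values.

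**Figure D1:**
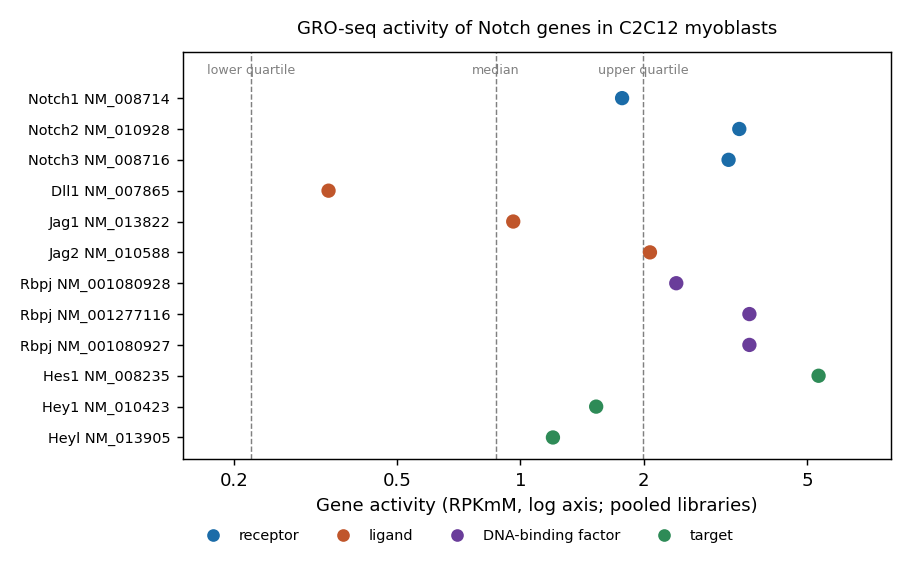
Gene activity of each of the 12 RefSeq entries on a log axis, in RPKmM of the pooled libraries, coloured by role, with dashed lines at the quartiles of all active entries (0.22, 0.87 and 1.99). Hes1 is the highest at 5.34, and Dll1, at 0.34, is the only entry left of the median.

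Among the receptors, Notch2 and Notch3 were transcribed at nearly the same level and Notch1 at a lower one. The activity of Notch2 (NM_010928) was 3.42 RPKmM, above 87.0% of active entries. Notch3 (NM_008716) had 3.22, above 85.9% of active entries. Notch1 (NM_008714) had 1.77, above 71.5% of active entries. Thus Notch2 and Notch3 were 1.93-fold and 1.82-fold higher than Notch1, and they lie above the upper quartile of active entries, whereas Notch1 lies just under it. Notch4, the remaining receptor of the family, known mostly from endothelium, was listed as active at only 0.03 RPKmM, 114-fold below Notch2 and 59.0-fold below Notch1. At such a level the rounding to 2 decimals alone can move a ratio considerably.

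The receptor genes differ in length and in their neighbours. On mouse assembly mm9, the build of the files, GENCODE places Notch1 on the minus strand at chr2:26313423-26359342, Notch2 on the plus strand at chr3:97817461-97954290 and Notch3 on the minus strand at chr17:32257765-32303825. The gene bodies beyond the first kilobase measure 44920, 135830 and 45061 bp, so that the level of Notch2 is an average over the longest stretch of any of the 10 genes. No annotated gene on the same strand overlaps these bodies or those of the other 7 genes, in the single model taken for each. The Rbpj model taken starts at 53981813 of chromosome 5, and the part of its longest model before that was not searched. On the opposite strand, the noncoding gene Gm17276 covers 46.6% of the Notch3 body, and 0610009E02Rik and Gm13568 cover 3.31% and 0.922% of that of Notch1. Only sense-strand reads entered the activity.

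The promoters of the receptors are shown because the 3 well-transcribed receptors and Notch4 differ plainly in sequence there. Given are the 250 bases before the RefSeq start of each receptor (assembly GRCm38.p6), 5′ to 3′ in the direction of transcription, with GC boxes (GGGCGG or, on the other strand, CCGCCC) in capitals.
Notch1 (chr2:26503823-26504072, minus strand): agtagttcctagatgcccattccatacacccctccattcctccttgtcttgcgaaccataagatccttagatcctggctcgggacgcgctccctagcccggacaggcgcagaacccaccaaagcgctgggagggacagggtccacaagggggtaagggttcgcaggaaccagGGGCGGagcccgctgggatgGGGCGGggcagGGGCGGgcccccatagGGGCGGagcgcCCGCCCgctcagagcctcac
Notch2 (chr3:98013288-98013537, plus strand): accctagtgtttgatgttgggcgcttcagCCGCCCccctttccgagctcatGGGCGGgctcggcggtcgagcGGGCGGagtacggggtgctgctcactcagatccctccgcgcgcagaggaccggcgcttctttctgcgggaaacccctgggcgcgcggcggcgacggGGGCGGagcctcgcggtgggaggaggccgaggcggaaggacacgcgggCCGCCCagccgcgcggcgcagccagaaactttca
Notch3 (chr17:32166891-32167140, minus strand): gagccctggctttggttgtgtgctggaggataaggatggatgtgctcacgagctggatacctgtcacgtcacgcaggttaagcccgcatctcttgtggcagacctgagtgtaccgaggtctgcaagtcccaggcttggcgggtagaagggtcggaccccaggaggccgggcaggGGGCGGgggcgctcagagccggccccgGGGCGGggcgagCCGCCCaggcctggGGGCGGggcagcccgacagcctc
Notch4 (chr17:34564045-34564294, plus strand): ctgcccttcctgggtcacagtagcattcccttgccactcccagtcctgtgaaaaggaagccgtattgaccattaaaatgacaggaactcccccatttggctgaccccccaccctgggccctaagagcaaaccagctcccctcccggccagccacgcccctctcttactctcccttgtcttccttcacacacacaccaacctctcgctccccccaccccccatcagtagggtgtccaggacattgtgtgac
Each of these runs is found exactly once on its chromosome of mm9. There it ends at the GENCODE start of Notch1 and Notch2, 10 bp from that of Notch3 and 27 bp from that of Notch4. The Notch1, Notch2 and Notch3 runs hold 5, 5 and 4 GC boxes and 16, 34 and 17 CpG dinucleotides. The Notch4 run holds no GC box and 4 CpG dinucleotides. Among 32841 mouse promoters read in the same way, 32.7% hold a GC box and the median is 6 CpG dinucleotides, with quartiles of 2 and 16. No TATAAA on either strand, and no muscle E-box of the form CAGCTG, occurs in the 4 runs. These are matches of letters, and binding was not measured.

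The 3 ligand genes spanned a wider range than Notch1, Notch2 and Notch3, though not than the receptors with Notch4 included. Jag2 (NM_010588) had an activity of 2.07 RPKmM, above 76.1% of active entries. Jag1 (NM_013822) had 0.96, above 52.7%. Dll1 (NM_007865) had 0.34, above 30.0%. Jag2 was thus 2.16-fold higher than Jag1 and 6.09-fold higher than Dll1, the only one of the 10 genes under the median of active entries. The median of the 3 ligands was 0.96 RPKmM, against 3.22 for the 3 receptors. The other canonical ligands, Dll3, known from the segmenting mesoderm, and Dll4, known from endothelium, were both listed as Inactive.

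Jag1 lies on the minus strand at chr2:136907192-136942380, Jag2 on the minus strand at chr12:114146801-114167706 and Dll1 on the minus strand at chr17:15504318-15512940 of mm9. Of the ligand promoters, that of Jag2 was the richest in CpG, with 54 dinucleotides and 5 GC boxes in 250 bases, 87.2% of which are G or C. The Jag1 promoter holds 20 CpG dinucleotides, and the 2 annotated Dll1 starts have 21 and 13 before them, all without a GC box. Before the starts of the inactive Dll3 and Dll4 there are 10 and 14 CpG dinucleotides and 1 and 2 GC boxes. A muscle E-box, CAGCTG, which is its own reverse complement, occurs once in the promoters of Jag1 and Dll3 and before 1 of the Dll1 starts, and it is present in 13.0% of all promoters. Over active genes of the pathway lists described below, the CpG count and the activity had a rank correlation of 0.20 (51 genes), and over all active symbols with a promoter it was 0.32 (10513 symbols). These are correlations across genes of the same pooled libraries and describe only this table.

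**Figure D2:**
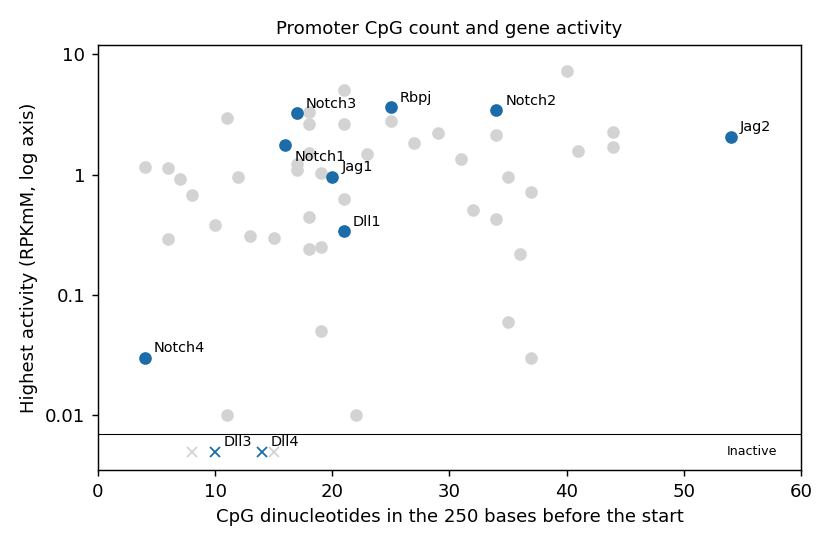
Highest activity of each gene in RPKmM (log axis) against the number of CpG dinucleotides in the 250 bases before its RefSeq start (the start with most, where there are several), for receptors, canonical ligands and Rbpj in blue and other Notch pathway genes in grey; crosses under the line are genes listed as Inactive. Notch4, with 4 CpG dinucleotides, lies at 0.03 and Jag2, with 54, at 2.07, but genes of many CpG dinucleotides can be low (Dlk2, 37 and 0.03) and genes of few can be above the median (Dtx2, 4 and 1.16).

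Rbpj, through which the receptors act on DNA, is the only one of the 10 genes with several entries. NM_001277116 and NM_001080927 both had an activity of 3.62 RPKmM, above 88.0% of active entries. NM_001080928 had 2.40, above 79.8%. The higher value exceeds the lower 1.51-fold. For comparison, over 2273 symbols with several active entries above 0, the highest entry was a median of 1.10 times the lowest, and 20.6% of these symbols had a ratio at least as large as that of Rbpj. The entries of a gene share most of their reads and are not replicates. GENCODE annotates 3 coding Rbpj transcripts on mm9 with a common end at 54048684 of chromosome 5 and starts at 53947018, 53981454 and 53981813. The later starts lie 34436 and 34795 bp within the longest model, and their gene bodies of 66231 and 65872 bp are 0.658 and 0.654 of its 100667 bp. The lower activity was 0.663 of the higher one. Which accession begins at which start is not given in the tables used here, so the length ratios and the activity ratio are only set side by side. The RefSeq starts read for the Rbpj promoters lie at 53981585 and 53981725 on mm9. Neither is at the start of the longest model.

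The only matches to the core motif bound by Rbpj, TGGGAA or its reverse complement TTCCCA, in promoters of the 7 member genes with a promoter sequence here, were found at Rbpj itself, and they are shown for this reason. Both lie before the first of the 2 RefSeq starts, with the motif in capitals, and the motif begins 149 and 65 bases before that start (assembly GRCm38.p6, 30 bases each).
Rbpj site 1 (chr5:53590185-53590214, plus strand): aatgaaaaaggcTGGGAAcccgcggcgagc
Rbpj site 2 (chr5:53590269-53590298, plus strand): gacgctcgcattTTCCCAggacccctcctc
The second site is also within 250 bases of the other start. Of all promoters, 21.6% hold this core, so 1 of 7 genes is not more than the background share. The longer form GTGGGAA, found in 5.41% of all promoters, is in none of the 7. Promoter sequences of Hes1, Hey1 and Heyl were not used here.

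Among the targets, Hes1, a repressor that also controls its own gene, stood well above the Hey genes. The activity of Hes1 (NM_008235) was 5.34 RPKmM, above 93.1% of active entries and 6.14 times the active median. Hey1 (NM_010423) had 1.53, above 67.0%. Heyl (NM_013905) had 1.20, above 59.3%. Hes1 was 3.49-fold and 4.45-fold higher than Hey1 and Heyl, which differed from each other by 1.27-fold. Both Hey genes lie between the median and the upper quartile of active entries. The Hes1 value is an average over the shortest stretch of the 10 genes, since the gene lies on the plus strand at chr16:30065426-30067882 of mm9 and only 1457 bp remain beyond the first kilobase. The stretch is 2678 bp for Hey1, on the minus strand at chr3:8663362-8667039, and 15320 bp for Heyl, on the plus strand at chr4:122910799-122927118. The reads behind these values were not computed here, as the table gives neither the depth nor the mappable bases of an entry, and values rounded to 2 decimals do not return whole reads.

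Other members of these repressor families with an entry, which are not among the genes picked with earlier results known, were low or inactive. Hes7, known from the segmentation clock, had 0.38 RPKmM, 14.1-fold below Hes1, and Hey2, known from heart and vessels, had 0.01. Hes2 and Hes3 were listed as Inactive. Hes5 and Hes6 have no value here. Hes and Hey proteins are known to oppose the muscle regulatory factors, whose activities in the same table were 2.39 RPKmM for Myod1, 5.03 for Myf5 and 2.39 for Myog. Hes1 thus had a level close to that of Myf5, and Hey1 and Heyl were below Myod1.

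**Figure D3:**
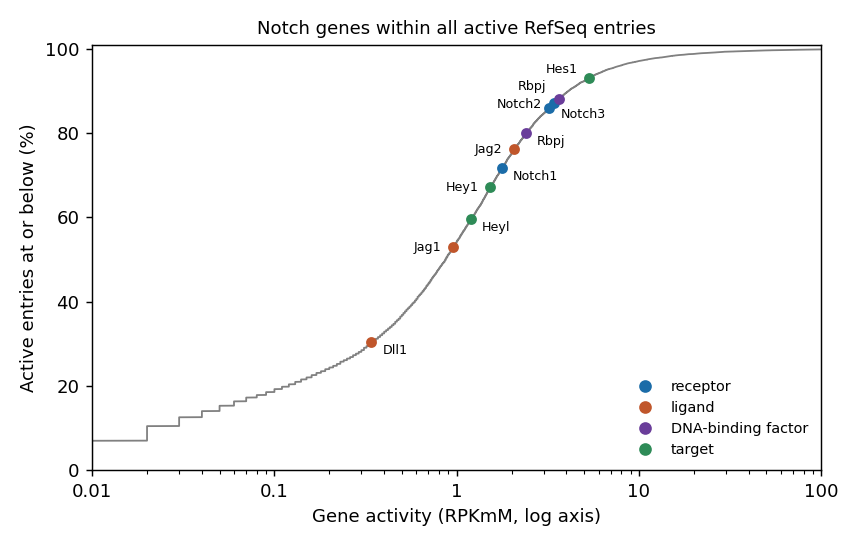
Share of active RefSeq entries at or below each activity (grey line, activity in RPKmM on a log axis), with the Notch genes marked on it by role. The receptors and Rbpj lie on the upper part of the line and the ligands are spread along it, with Dll1 at 0.34 and Jag2 at 2.07.

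The other genes of the pathway were taken from lists by role, with 63 genes beside the 10. Of these, 60 have an entry, 53 have an active entry (68.7% of all symbols do), 33 reach the median of active entries (34.5% of all symbols) and 30 reach 1 RPKmM (31.6%). The median of the 53 active genes, each at its highest entry, was 1.16 RPKmM, against 0.87 for all active entries. These counts describe the lists, which hold many genes used in other pathways too, and no test was made on them.

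Genes of enzymes that cut the receptor ranged widely, with Furin and Ncstn at the top. Furin, the protease that cleaves Notch on its way to the surface, had 7.24 and 6.39 RPKmM in its 2 entries. Adam10 and Adam17, which shed the ectodomain after ligand binding, had 2.22 and 1.47. Of γ-secretase, Ncstn, the subunit that receives the substrate, had 5.02, and Psen2 had up to 0.30. The Aph1 genes were all below the active median, with 0.68 for Aph1a, 0.25 for Aph1b and 0.05 for Aph1c. In all, 9 of the 9 cleavage genes with an entry were active and 5 reached the active median, beside 68.7% and 34.5% of all symbols.

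Of 5 genes that sugar-modify the receptor, 4 were active, near the 68.7% of all symbols, and 3 reached the active median (34.5% of all symbols). Pofut1, which adds O-fucose, had 1.57 RPKmM and Poglut1, which adds O-glucose, 0.91. Of the Fringe enzymes, which extend O-fucose and alter the response to different ligands, Lfng had 1.51 and Rfng 0.43, while Mfng was listed as Inactive. Among ubiquitin ligases needed for ligand endocytosis, Mib1 had 2.44, Mib2 1.03, Neurl1a up to 2.61 and Neurl1b 0.22. Both the Mib genes and Neurl1a were thus above the active median. The divergent ligands Dlk1, Dlk2 and Dner were Inactive, 0.03 and 0.01.

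Of the 9 genes of the activating complex, Rbpj among them, 8 reached the active median and 7 the upper quartile, against 34.5% and 17.3% of all symbols. The Mastermind-like coactivators Maml1 and Maml3 had 3.30 and 2.61 RPKmM, but Maml2 had at most 0.29. The acetyltransferase genes Ep300, Crebbp, Kat2a and Kat2b had 2.78, 2.27, 2.93 and 1.13. On the corepressor side all 14 genes were active and 8 reached the active median (68.7% and 34.5% of all symbols). Spen, which binds Rbpj, had 1.70. Of the Groucho-type corepressors that Hes and Hey proteins can recruit, Tle3 had 3.23, Tle1 0.95, Tle2 up to 0.63 and Tle4 0.06.

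Of 10 inhibitor and turnover genes, 9 were active and 7 reached the active median, beside 68.7% and 34.5% of all symbols. Only 1, Dtx3, reached the upper quartile of active entries (17.3% of all symbols). Numb, which inhibits Notch, had 0.89 to 0.96 RPKmM in its 3 entries and its relative Numbl 1.22. The ubiquitin ligase genes Itch and Fbxw7 had 1.40 and up to 1.10. Nrarp, a feedback inhibitor that is itself a Notch target, had 0.24, well under Hes1, Hey1 and Heyl. The Deltex genes ranged from Inactive for Dtx1 to 6.04 for Dtx3.

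**Figure D4:**
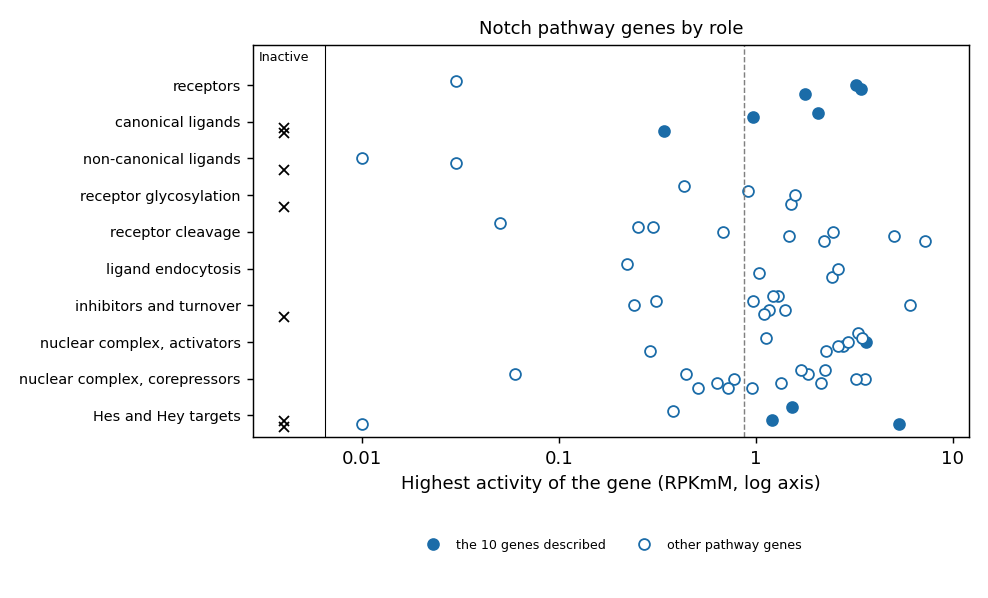
Highest activity in RPKmM (log axis) of each Notch pathway gene with an entry, in rows by role; filled circles are the 10 genes described, open circles other pathway genes, crosses at the left genes listed as Inactive, and the dashed line the median of active entries (0.87). In the rows of receptors, canonical ligands and targets, each open circle or cross (Notch4, Dll3, Dll4, Hes2, Hes3, Hes7 and Hey2) lies left of the median, and in the activator row only Maml2 does. The filled genes were picked with earlier results of this table known, so their contrast with the open ones is not a result.

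The identity of the cells was checked with marker lists. Over all symbols, 68.7% have an active entry and 34.5% reach the active median. All 9 myoblast markers were active and 7 reached that median, from 0.55 RPKmM for Pax7 to 72.5 for Des. All 11 markers of differentiated muscle with an entry were active too, from 0.01 for Myh2 to 6.85 for Acta1, and 4 of them reached the active median, which is about the share of all symbols. Of endothelial markers, 2 of 6 were active, Pecam1 and Tek at 0.01 each, while Cdh5 and Kdr were Inactive, beside the low value of Notch4 and the inactive Dll4. Of blood markers 1 of 6 was active, Cd3e at 0.01. Of neural markers 2 of 6 were active, with Tubb3 at 6.01 and Gfap at 0.01, and of fibroblast and adipocyte markers 3 of 6, from 0.01 to 0.38. Whether differentiating cells in the culture contribute to the levels of the Notch genes was not tested.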

How the data were processed

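GRO-seq libraries of C2C12 myoblasts were mapped by the authors to mm9 with Bowtie2 (the submitters' processing notes also name CASAVA 1.8). They kept reads of mapping quality 40 or more, trimmed and realigned failed reads, discarded reads at rRNA and tRNA repeats and pooled 2 libraries. The deposited table gives RPKmM, an RPKM over mappable bases, the density of sense-strand reads in the gene body, rounded to 2 decimals, for RefSeq genes of at least 2 kb on chromosomes 1 to 19 and X; 7208 cells hold the word Inactive, for genes that did not pass the authors' comparison with gene deserts. For that reason the unit could not be checked automatically and rests on the column name and the methods. Pooling hides variation between libraries, and the depth, which the study states for the pooled libraries only, is not in the table.

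Members and lists were chosen with earlier results of these data known. The genes named are the 10 members, all their entries, and genes of the pathway and marker lists. A gene with several entries was taken at its highest. Percentiles are shares of active entries with a lower activity. All 12 member accessions matched the same symbol in RefSeq. Gene models came from GENCODE vM1 (mm9), taking for Notch1, Notch2, Notch3, Dll1, Jag1, Jag2 and Rbpj the coding transcript that starts nearest to a RefSeq start. Promoters (RefSeq, GRCm38.p6; 7 of 10 members) were cut to the 250 bases before the start, and motifs were searched on both strands, overlaps included. No test was possible with a single pooled value. The percentile and motif searches were tested on simulated data. Alternatives are called moved if they changed a value by more than 1.5 times. Python 3.11.15, numpy 2.4.6, pandas 2.3.3 and matplotlib 3.10.9 were used.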

Additional observations from a re-analysis of the deposited data

How the results depend on the processing

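Of 42 alternative values, 36 stayed within 1.5 times the reported one. Setting inactive entries to 0 and comparing with all entries raised the ratio of the member median to the table's median from 2.21 to 6.19, that of the receptors from 3.70 to 10.4, that of the ligands from 1.10 to 3.10 and that of the targets from 1.76 to 4.94, since this lowers the table's median. Geometric means with a pseudocount of 0.01 moved the targets to 3.48, while the receptors and ligands stayed within the limit. The longer motif GTGGGAA was found in 0 of the member promoters, against 1 gene with the core. The alternatives that stayed within the limit were the mean or the lowest entry of a gene, a single value per symbol, a minimum of 0.01 RPKmM, a pseudocount of 0.1, genes of at least 10 kb, and thresholds of 0.01 and 0.1 RPKmM for an active member. Some of these could not have moved a value. Each receptor, ligand and target has 1 entry, so the mean or lowest entry returns the same role medians. The lowest Rbpj entry, 2.40, is still above the member median of 1.92. Dll1, the lowest member, is at 0.34 RPKmM, so neither threshold could change the count of active members. With genes of at least 10 kb, Hes1, Hey1 and Dll1 drop out and Heyl alone stands for the targets. Leaving out a replicate was not possible, because the deposited values are pooled. No paired analysis was possible because there is a single group and a single pooled column. The table gives neither the depth nor the mappable bases of an entry, so read numbers were not computed, and differences between neighbouring levels and ratios against values of 0.01 to 0.05 are given without an error.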
